A study of Pimephales promelas with 27 samples.

Results

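Larvae of the fathead minnow (Pimephales promelas) that had developed from embryo to hatch in fresh oil sands process water at 10 ppm were compared with larvae of the salt control for that water. The comparison is of 6 of the 27 arrays in the series, chosen by their labels. They were replicates 1, 2 and 3 of the 10 ppm group, and replicates 7, 8 and 9 of the fresh salt group. Total RNA of whole, newly hatched larvae was labelled with Cy3 and hybridised to one-colour Agilent arrays. The series also held fresh process water at 5 ppm, aged process water at 10 and 20 ppm, and pure naphthenic acids at 1.25 and 2.5 ppm, with a separate salt control for the aged water and for the pure acids and 3 arrays in each of the 9 groups. The labels leave unstated which compounds the ppm of process water refers to, what salt the controls held, and whether the 3 samples within each group were reared in different tanks or came from different spawns. A p-value here therefore speaks only of the variation among the samples within the 9 groups, part of which may be technical.

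Oil sands process water is the water left when bitumen is washed out of sand. It carries salts, residual hydrocarbons and naphthenic acids, a mixture of carboxylic acids with aliphatic and ring-bearing chains that act as surfactants. Naphthenic acids are regarded as a main source of the acute toxicity of this water to fish, and ageing of the water in ponds is known to change the mixture as microbes degrade part of it. The fathead minnow is a small North American freshwater fish and a standard species of toxicity testing, and exposure from embryo to hatch spans the formation of its organs. Genes that fish embryos are known to induce on exposure to petroleum compounds include those of the cytochrome P450 1 family, which oxidise aromatic compounds under the control of the aryl hydrocarbon receptor. None of the 15208 probes could be paired with a gene: 0 of the probe and sequence names in the files matched the 64593 genes of the reference table. The probes below are therefore given by identifier or by count, pathways and tissue markers could not be looked up, and the labelled stage could not be checked against marker genes. In whole larvae, fewer cells of a type and less RNA per cell cannot be told apart.

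A level is the log2 processed signal of a probe minus the 75th percentile of its array, so that 0 is the signal at that percentile, and levels of different probes are not compared for abundance. Testing was limited to the 13134 probes that the scanner software marked well above background on 3 or more of the 6 arrays, and 11895 of these were so marked on all 6. A probe was called if its Benjamini-Hochberg adjusted p in limma was below 0.05.

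At 10 ppm, 46 probes rose and 23 fell against the salt control. These are 0.35% and 0.175% of the 13134 tested probes, while 2222 probes had an unadjusted p below 0.05. The rises were from 0.63 to 6.51 on the log2 scale with a median of 1.33, and the falls from -0.46 to -2.54 with a median of -1.0. By fitted change, at least 2-fold rises made up 36 of the 46 and at least 4-fold rises 9, against 11 and 1 of the 23 falls. The 9 include a probe not above background on salt, given below only as at least 3.20-fold higher. With replicate 1 of the 10 ppm group left out, 21 probes rose (0.16%) and 1 fell (0.00761%), with 1574 at an unadjusted p below 0.05. Of the called probes, 20 rises and 1 fall were called either way.

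Replicate 1 stood apart from the other arrays of the comparison. Across the tested probes its levels had a Pearson correlation of 0.84 to 0.86 with the other 5 arrays, which correlated with each other at 0.95 to 0.99. The tested probes were divided into 10 groups of equal size by their salt level. The dimmest group had a median level of -2.35 on replicate 1, against -5.54 and -5.49 on replicates 2 and 3, and 518 probe spots of replicate 1 were marked not uniform, against 0 to 22 on the others. The 75th percentile of the signal ranged from 1023 to 2044 over the 6 arrays, highest on replicate 1, and 12295 to 14981 probes were above background. With replicate 1 the median change of all tested probes was 0.19, and without it 0.03. None of the 69 called probes had a spot marked not uniform on any of the 6 arrays, and no probe spot was saturated.

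On the control spots, dim spike-in RNAs also read high on replicate 1. The 2 spike-in RNAs that were dimmest on salt, at -7.90 and -7.86, read -1.59 and -0.53 on replicate 1, whereas the brightest read 6.13, within the 5.90 to 6.77 of the other arrays. Negative control spots of replicate 1 had a median of -7.44, against -8.17 to -7.83 on the others. The median change of the dimmest group of tested probes was 1.03 with replicate 1 and -0.05 without it, and that of the brightest group was 0.01 and 0.17. The part of this shift in the called rises was not tested beyond the repeat without replicate 1.

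**Figure D1:**
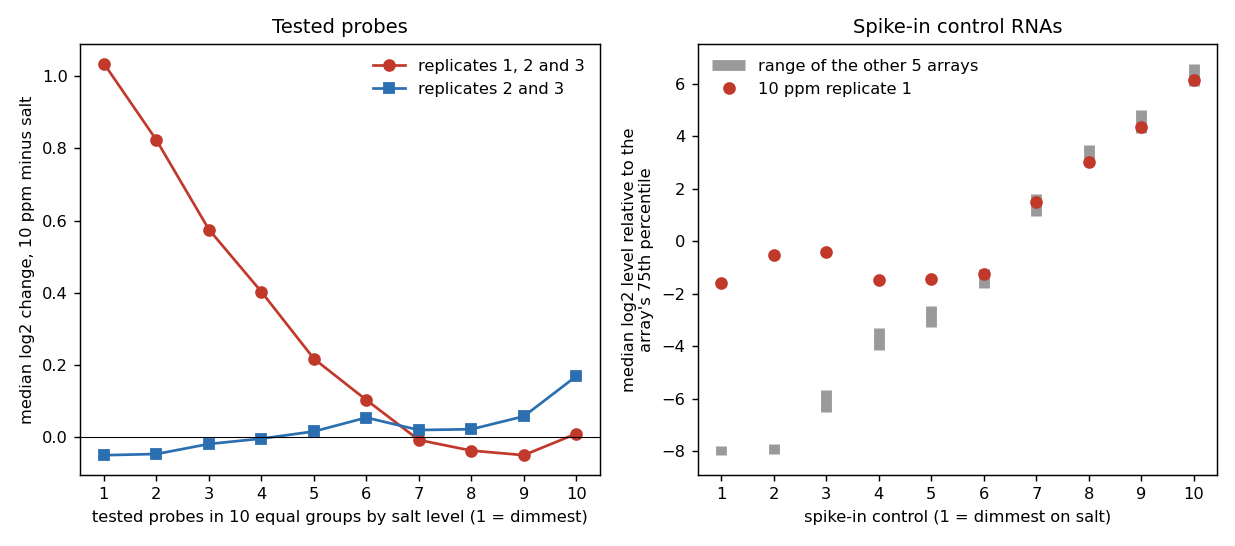
Left, the median log2 change at 10 ppm against salt (vertical axis) for 10 equal groups of tested probes ordered by salt level (horizontal axis), with all 3 exposed replicates (circles) and with replicates 2 and 3 (squares); right, the median level of 10 spike-in control RNAs on replicate 1 (points) beside the range of the other 5 arrays (bars). The dimmest group moves from 1.03 with replicate 1 to -0.05 without it, and the dimmest spike-ins read far above the other arrays on replicate 1 while the brightest lie within their range.

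Probe UF_Ppr_AF_106707 had the largest called rise. Its level was -5.36, -4.14 and -5.39 on salt replicates 7, 8 and 9 and 1.27, 1.24 and 2.14 on exposed replicates 1, 2 and 3. All 3 exposed arrays lay far above all 3 salt arrays, and the probe was above background on each. The mean level rose from -4.96 ± 0.71 to 1.55 ± 0.51 (SD, n = 3 each), a change of 6.51 on the log2 scale (SE 0.86) or 91.0-fold, with a limma adjusted p of 0.000956. Without replicate 1 the change was 6.65 (limma adjusted p = 0.00467). The call was lost in fits on only the 6 arrays (limma adjusted p = 0.0698) or only the 9 fresh arrays (limma adjusted p = 0.0512), with the same change, and after normexp background correction, where the change was 3.69 (limma adjusted p = 0.115).

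Next was UF_Ppr_AF_109055, at -6.27, -6.12 and -6.12 on salt and -0.34, -0.80 and 0.25 on replicates 1, 2 and 3 at 10 ppm. It was not well above background on any salt array and well above it on every exposed array, so only a lower bound can be given. Its signal was at least 50.5-fold higher at 10 ppm, where the bound sets the exposed mean against the lowest signal above background on each salt array or the probe's own, whichever is higher. It passed the filter on dim probes only through the exposed arrays, where it is high, so that its limma adjusted p of 0.0021, or 0.0118 without replicate 1, is given as a description. It was the 1 probe called when the fit held only the 6 arrays, which is likewise a description, since the spread of its salt arrays is that of readings not above background. After normexp its change was 2.49 on the log2 scale, below that bound, and it was not called (limma adjusted p = 1).

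The falls were led by UF_Ppr_AF_113032. It was at 4.41, 5.03 and 6.38 on salt and at 2.50, 3.12 and 2.58 on exposed replicates 1, 2 and 3. The groups did not overlap, but the salt arrays were spread over nearly 2 log2 units, with replicate 9 highest. The mean fell from 5.27 ± 1.01 to 2.73 ± 0.34 (SD, n = 3 each), a change of -2.54 (SE 0.53, limma adjusted p = 0.0308). The call was lost without salt replicate 9, where the change was -1.98 (limma adjusted p = 0.26), and without exposed replicate 1, where it was -2.42 (limma adjusted p = 0.119). With slide as a fixed block it was -2.55 and also not called (limma adjusted p = 0.057).

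UF_Ppr_AF_117873 was the second fall. Its level was 0.19, -0.43 and 0.15 on salt replicates 7, 8 and 9 and -1.73, -1.16 and -2.23 at 10 ppm. The lowest salt array lay above the highest exposed array. The change was -1.67 (SE 0.28, limma adjusted p = 0.00686), and without replicate 1 it was -1.66 (limma adjusted p = 0.0334), the 1 fall called either way. Without salt replicate 9 or exposed replicate 3 the change was -1.58 and -1.41, with limma adjusted p-values of 0.0618 and 0.0753.

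**Figure D2:**
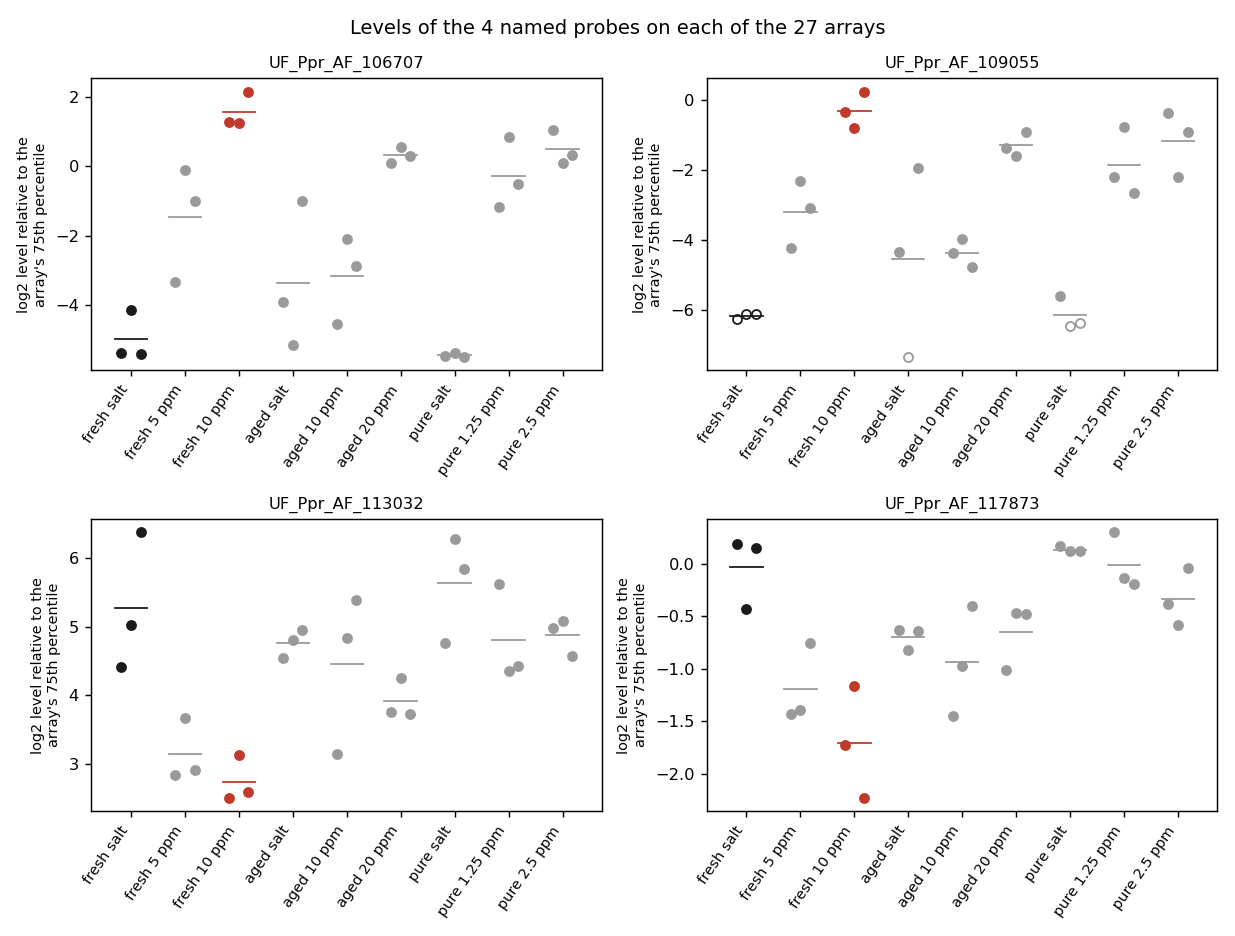
Levels (vertical axes, log2 relative to each array's 75th percentile) of the 2 largest called rises and the 2 largest called falls on all 27 arrays by group (horizontal axis), with points for arrays and bars for group means of 3; open points are arrays where the probe was not well above background. The 10 ppm fresh arrays (red) lie apart from the fresh salt arrays (black) in each panel, from 1.24 to 2.14 against -5.39 to -4.14 for UF_Ppr_AF_106707.

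Other large rises were as orderly across the arrays. The probe with the third-largest rise was at -2.94, -3.75 and -4.46 on salt and at -0.27, 0.09 and 0.19 on exposed replicates 1, 2 and 3, a change of 3.72 (SE 0.57, limma adjusted p = 0.00266). The fourth was at -3.29, -2.93 and -3.31 on salt and at -0.43, 1.0 and 0.18 at 10 ppm, a change of 3.42. In both, the lowest exposed array was more than 2 log2 units above the highest salt array. Among bright probes, one rose from 1.41, 1.72 and 1.12 on salt to 3.43, 3.59 and 4.19 (change 2.32, SE 0.29, limma adjusted p = 0.000956), and another from 1.76, 1.20 and 1.36 to 3.60, 3.57 and 3.76 (change 2.20). Replicate 1 was not the highest exposed array in either. Another bright probe, at 0.77, 0.99 and 0.96 on salt and 2.43, 2.30 and 2.61 at 10 ppm, had an SE of 0.18 for a change of 1.54.

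The weakest of the large rises in terms of measurement was the fifth, at -7.59, -7.96 and -6.70 on salt, where it was not above background on any array. It was at -3.61, -4.41 and -4.81 on exposed replicates 1, 2 and 3 and is given as at least 3.20-fold higher. It too passed the filter only through the exposed arrays, and its limma adjusted p of 0.0174, or 0.092 without replicate 1, is a description. Replicate 1 was its highest array.

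For all 46 rises the 3 exposed arrays lay above the 3 salt arrays, and for all 23 falls below them. Of all tested probes, 11.6% did so upward and 8.13% downward. Measured from the salt mean, the rises had a median of 1.48 on replicate 1, 1.18 on replicate 2 and 1.52 on replicate 3, and the falls medians of -1.18, -0.63 and -1.19. Replicate 2 therefore lay nearest the salt control in both directions, and leaving it out raised the count of called probes from 69 to 382, with 157 rises and 225 falls. Leaving out another array lowered the count. Without exposed replicate 3, 15 probes rose and 1 fell. Without salt replicate 9 these counts were 14 and 0, without salt replicate 8 they were 17 and 2, and without salt replicate 7 they were 29 and 11.

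**Figure D3:**
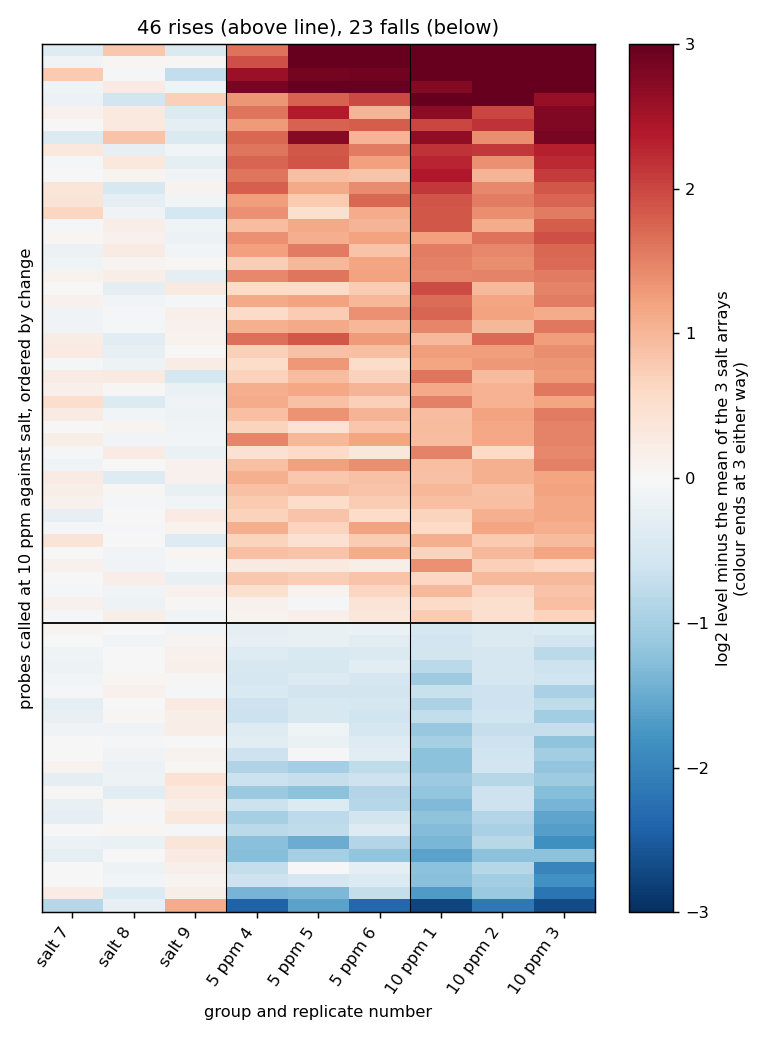
Each line of the map is 1 of the 69 called probes, ordered by change, with 46 rises above the black line and 23 falls below it. Columns are the 9 fresh arrays by group and replicate, and colour is the log2 level minus the mean of the 3 salt arrays, cut at 3 either way. The 10 ppm columns are coloured one way throughout each block, replicate 2 least so, and the 5 ppm columns mostly have the same colour, for most probes more weakly.

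Rises and falls sat at different signal levels. The rises had salt levels from -7.42 to 4.72 with a median of -0.98, and the falls a median of 0.68, against -1.90 for all tested probes. On salt, 19 of the rises were dimmer than the median tested probe, and 43 of 46 were above background on all 6 arrays. Of the falls, 1 was dimmer than that median and all 23 were above background on all 6.

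The probes called either way differed in this from those called with replicate 1 only. The 26 rises not called without replicate 1 had a median salt level of -2.36, with 14 dimmer than the median tested probe and replicate 1 the highest exposed array in 16. The 20 rises called either way had a median salt level of 0.56, with 5 dimmer than the median tested probe and replicate 1 the highest in 1. Leaving out replicate 1 lowers any rise in which it is the highest exposed array, so the split itself favours this last contrast. The size of the change moved little, from a median of 1.26 to 1.20 in the first group and from 1.52 to 1.53 in the second. The sign of the 69 could not change without replicate 1, since none of them overlapped between the groups. Their limma adjusted p-values were then up to 0.212 for the rises and 0.2 for the falls. All 69 had an unadjusted p below 0.05, on arrays that had helped to choose them. The 1 probe called without replicate 1 and not with it was bright, at 5.25, 5.16 and 5.54 on salt and 5.69, 6.24 and 6.63 at 10 ppm, with a change of 1.12 without replicate 1 (limma adjusted p = 0.0479) and 0.87 with it (0.0824).

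**Figure D4:**
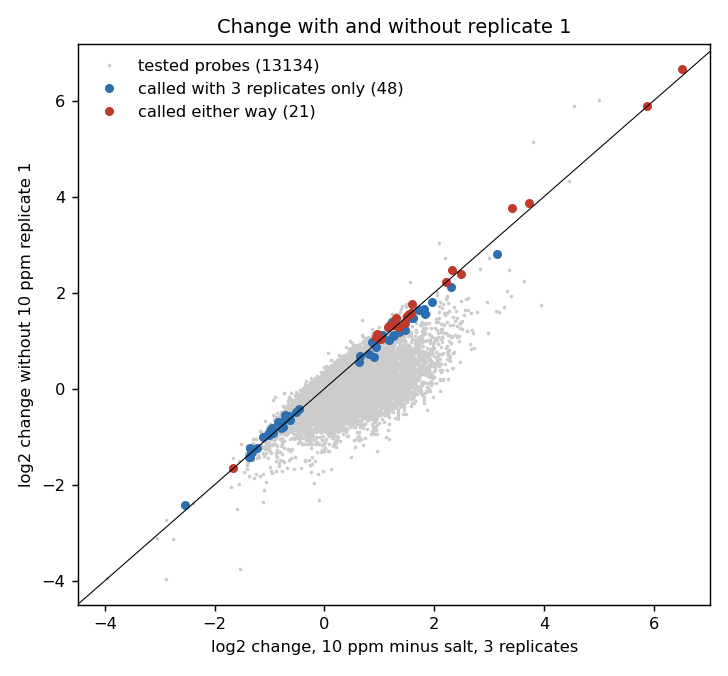
Log2 change at 10 ppm against salt from all 3 exposed replicates (horizontal axis) and without replicate 1 (vertical axis), with 1 point for each of the 13134 tested probes and a line of equal change. The 69 called probes lie near the line, 21 of them called either way. Of all tested probes, 155 were at least 4-fold higher with all 3 replicates and 23 without replicate 1.

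Size alone did not mark the called probes. By fitted change, 155 of the tested probes were at least 4-fold higher at 10 ppm, 9 of them called, but 23 were so without replicate 1. At least 4-fold falls numbered 7 with replicate 1 and 13 without it. The largest rise that was not called, 5.00 (limma adjusted p = 0.144), came from exposed replicate 2 at 6.32, with replicates 1 and 3 at -2.35 and -4.98 and the salt arrays between -5.65 and -5.17. The largest fall that was not called, -3.96 (limma adjusted p = 0.243), came from salt replicate 9 at 7.89, while the other 5 arrays lay between -3.79 and -2.92.

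The division of the called probes between rises and falls differed between scalings. The median change of all tested probes was 0.19 with the 75th percentile, -0.09 after quantile normalization, and -0.09 in the authors' deposited log2 values. Rises made up 46 of 69 calls in the first, 45 of 78 in the second and 49 of 60 in the third. Of the 78 and the 60 calls, 43 and 40 were among the 69. Relative to the median of all probes, the 46 rises had a median of 1.33 against 0.19, 1.20 against -0.09 and 1.29 against -0.09. All 46 stayed above 0 after quantile normalization and 45 in the authors' values, and all 23 falls stayed below 0 in both, with medians of -1.29 and -1.17. After normexp background correction all 69 also kept their sign, and 3 rises and 0 falls were called, with 357 probes at an unadjusted p below 0.05.

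Arrays lay on 4 slides, and each slide was scanned in 1 scan. Exposed replicate 3 and salt replicates 7 and 9 shared a slide, while replicates 1 and 2 and salt replicate 8 lay on the others, 1 each. On the shared slide, exposed replicate 3 less the mean of the salt arrays had medians of 1.51 for the 46 rises and -1.22 for the 23 falls. The median of all tested probes was 0.02 there. The directions could not differ from those over the 6 arrays, since no called probe overlapped between the groups. These 3 arrays also helped to choose the probes. With slide as a fixed block 116 probes were called, 74 rises and 42 falls, and 54 of these were among the 69.

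A group of 16 rises and 1 fall was called under each of 6 other settings, chosen after the results had been seen. They were without replicate 1, after quantile normalization, in the authors' values, and with probes kept that were above background on 3 of all 27 arrays. Also included were slide as a fixed block and leaving out the 5 arrays whose probe ranking differed from that in the authors' values. Those 5 were exposed replicate 1, aged salt replicates 7 and 9 and aged 20 ppm replicates 4 and 6. That setting therefore leaves out replicate 1 as well and is not separate from the first. The 16 rises ranged from 0.94 to 6.51 with a median of 1.55, and the fall was UF_Ppr_AF_117873. Among the 16 was UF_Ppr_AF_109055, which passed the filter only through the exposed arrays and is the 1 called in the fit on the 6 arrays. Other settings called fewer of this group: 3 rises and 0 falls after normexp, 1 and 0 in the fit on the 6 arrays, 7 and 0 in the fit on the 9 fresh arrays, and 7 and 0 with a minimum fold of 1.5. Without salt replicate 9 it was 11 and 0, without exposed replicate 3 it was 12 and 0, and without salt replicate 8 it was 14 and 1.

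The 69 called probes were designed on 69 different source sequences. In 2 cases another tested probe was designed on the same sequence. The partner of a rise of 2.30 was at 3.25, 3.88 and 3.60 on salt and 4.40, 4.65 and 5.26 at 10 ppm, a change of 1.19 (SE 0.30, limma adjusted p = 0.0757). The partner of a fall of -0.52 was dim, at -4.48, -4.72 and -4.44 on salt and -1.18, -4.52 and -4.70 on exposed replicates 1, 2 and 3, so that its change was 1.08 with replicate 1 (limma adjusted p = 0.468) and -0.07 without it.

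The 5 ppm group of the same water addressed whether the changes depended on dose. It shares the salt arrays with the 10 ppm comparison, so the values below stand side by side and are no repeat. At 5 ppm 12 probes rose (0.0914% of those tested) and 0 fell, with 1178 probes at an unadjusted p below 0.05. The 46 rises at 10 ppm had a median change of 1.05 at 5 ppm, where 11 of them were called. For the 23 falls the median change was -0.54, and 0 were called. UF_Ppr_AF_106707 was at -3.33, -0.10 and -1.0 on 5 ppm replicates 4, 5 and 6, and UF_Ppr_AF_109055 at -4.24, -2.30 and -3.08. Both were between the salt and the 10 ppm arrays, with no overlap. UF_Ppr_AF_113032 was at 2.83, 3.67 and 2.90, overlapping the 10 ppm arrays, as did UF_Ppr_AF_117873 at -1.43, -1.39 and -0.75.

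The mean at 5 ppm lay between salt and 10 ppm for 41 of the 46 rises and 22 of the 23 falls. The other 5 rises were higher at 5 than at 10 ppm, among them one at 2.54, 2.75 and 2.16 against 1.85, 2.57 and 2.14. Tested directly, 10 ppm against 5 ppm gave 0 called probes (0%), with 794 at an unadjusted p below 0.05 and a smallest limma adjusted p of 0.57 among the 69. The step from 5 to 10 ppm had a median of 0.42 for the rises, beside 0.17 for all tested probes, and of 0.37 beside 0.06 without replicate 1. For the falls it was -0.26, and -0.27 without replicate 1. The 10 ppm arrays did not overlap the 5 ppm arrays for 18 of the 46 rises and 12 of the 23 falls, beside 7.85% of all tested probes upward and 3.63% downward. The 69 probes were chosen on the 10 ppm arrays, which favours the 10 ppm side of this step.

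The aged water and the pure acids, each with its own salt arrays, gave values of the same probes on other larvae. All comparisons share 1 estimate of each probe's spread, and the probes were chosen for their change in fresh water, so smaller values elsewhere carry no test by themselves. At aged 10 ppm, the dose shared with the fresh water, 18 probes rose (0.137%) and 2 fell (0.0152%). Of the 46 rises 43 were above 0 there, with a median of 0.80 beside -0.19 for all tested probes, and 11 were called. At aged 20 ppm, where 44 probes rose (0.335%) and 1 fell (0.00761%), the median was 1.24 and 22 were called. Of the aged salt arrays, replicate 9 had a median of -1.97 and replicate 7 of -4.49 for the dimmest group of probes, against -5.89 on replicate 8. Of the exposed arrays at aged 20 ppm, replicate 6 was at -3.66, against -5.04 and -5.40 on replicates 4 and 5. The part of these salt and exposed arrays in the aged values was not tested.

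The pure acids gave the same direction for nearly all rises. At pure 1.25 ppm 28 probes rose (0.213%) and 0 fell, and the 46 had a median change of 1.09 with 17 called. At pure 2.5 ppm 218 probes rose (1.66%) and 40 fell (0.305%), and 44 of the 46 were above 0 with a median of 1.81 and 37 called. UF_Ppr_AF_106707 changed by 5.16 and 5.93 in the pure acids (limma adjusted p = 0.00991 and 0.000301). Its mean level was -5.44 ± 0.06 on pure salt, -0.28 ± 1.03 at pure 1.25 ppm and 0.48 ± 0.50 at pure 2.5 ppm (SD, n = 3 each). In the aged series it was at -3.35 ± 2.13 on salt, -3.16 ± 1.24 at 10 ppm and 0.31 ± 0.22 at 20 ppm. The spread on aged salt was wide, with -3.91, -5.15 and -1.0 on replicates 7, 8 and 9. UF_Ppr_AF_109055 followed with changes of 4.29 and 5.00 in the pure acids and 0.18 and 3.28 in the aged water, the last 2 not called (limma adjusted p = 0.896 and 0.175). It was above background on 1 of 3 pure salt arrays and 2 of 3 aged salt arrays, so these changes rest in part on readings not above background. The aged salt arrays above background were replicates 7 and 9, at -4.36 and -1.95, against -7.36 on replicate 8. Replicates 7 and 9 are also the aged salt arrays whose dim probes read high. Their part in the aged changes of UF_Ppr_AF_106707 and UF_Ppr_AF_109055 was not tested.

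The falls had small changes in the other exposures. Of the 23, 0 were called at aged 10 ppm, aged 20 ppm or pure 1.25 ppm, with medians of -0.27, -0.23 and -0.41, and 1 was called at pure 2.5 ppm, where the median was -0.47. Among all 13134 tested probes, 2 (0.0152%), 1 (0.00761%) and 0 were called lower in the first 3. At pure 2.5 ppm 40 (0.305%) were. A count of 0 of the 23 is therefore near the share over all probes. All 23 were below 0 at aged 10 ppm and in both pure doses, and 21 at aged 20 ppm, where the all-probe medians lay between -0.19 and -0.04. UF_Ppr_AF_113032 had mean levels of 4.77 ± 0.21 on aged salt, 4.45 ± 1.17 at aged 10 ppm, 5.63 ± 0.79 on pure salt and 4.88 ± 0.27 at pure 2.5 ppm (SD, n = 3 each), against 2.73 ± 0.34 at fresh 10 ppm. UF_Ppr_AF_117873 was at -0.70 ± 0.11 on aged salt, -0.94 ± 0.53 at aged 10 ppm and -0.65 ± 0.31 at aged 20 ppm. In the pure series UF_Ppr_AF_117873 was at 0.14 ± 0.03 on salt, -0.01 ± 0.27 at 1.25 ppm and -0.33 ± 0.27 at 2.5 ppm. The 3 aged salt arrays lay below all fresh and pure salt arrays, a difference that was not tested.

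**Figure D5:**
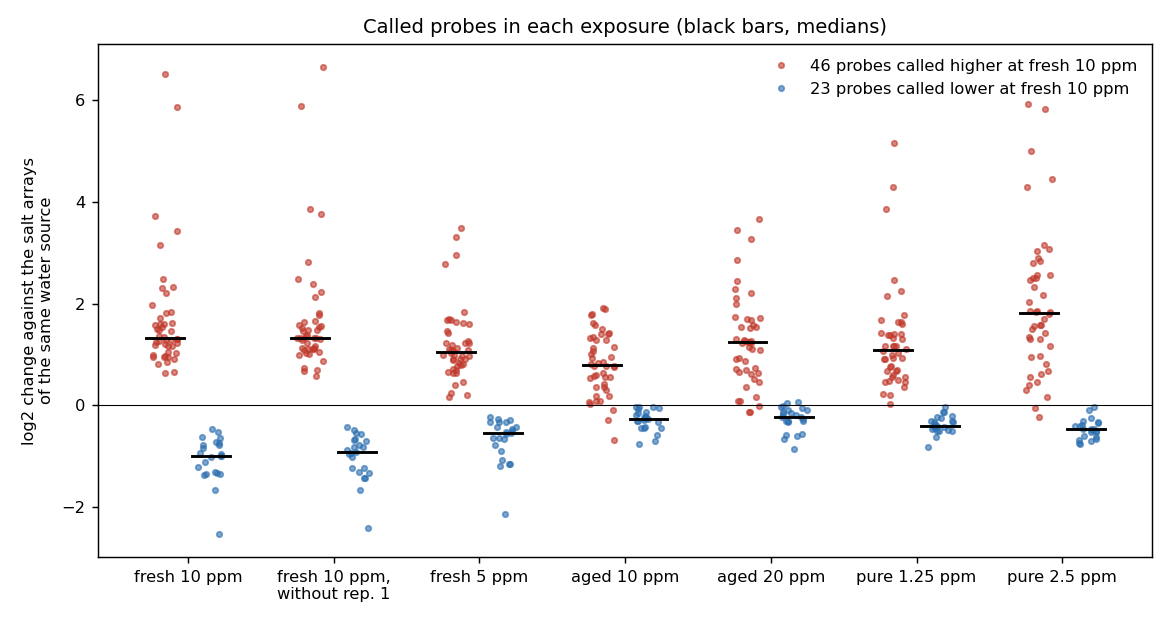
Log2 change against the salt arrays of the same source (vertical axis) in each exposure (horizontal axis) for the 46 probes called higher (red) and the 23 called lower (blue) at fresh 10 ppm; points are probes and black bars medians. The rises have medians from 0.80 at aged 10 ppm to 1.81 at pure 2.5 ppm, and the falls from -0.23 at aged 20 ppm to -1.0 at fresh 10 ppm, the exposure that chose them.

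Whether the fresh effect differed from the others was tested as a difference of changes. The fresh 10 ppm change minus the aged 10 ppm change gave 0 called probes (0%), with 3669 at an unadjusted p below 0.05, among them 20 of the 46 rises and 18 of the 23 falls. Medians of this difference were 0.58 for the rises and -0.67 for the falls, beside 0.27 for all tested probes. The smallest limma adjusted p was 0.152 in both. The 46 rises and 23 falls were chosen for their fresh 10 ppm change, which is a term of this difference. That choice favours rises above 0, falls below 0 and small p-values. Their counts and medians are therefore given as a description, and the test is the count over all tested probes. Without fresh 10 ppm replicate 1 there were also 0 calls, with 1228 probes at an unadjusted p below 0.05. The median of all tested probes was then 0.20. With all fresh arrays kept, the same test called 3506 probes without aged salt replicate 8, 0 without replicate 9 and 1 without replicate 7. The 3506 were called against aged salt replicates 7 and 9 alone, whose dim probes read high. The cause of this shift in the count was not tested. The fresh 10 ppm change minus the pure 2.5 ppm change also gave 0 called probes (0%), with 848 at an unadjusted p below 0.05, among them 19 rises and 8 falls. There the medians were -0.31 for the rises and -0.45 for the falls, beside 0.24 for all tested probes. The smallest limma adjusted p-values were 0.212 and 0.429. The fresh 10 ppm change that chose the rises and falls is a term of this difference too, so their values are again a description. Without fresh 10 ppm replicate 1 this second test also gave 0 calls, with 477 probes at an unadjusted p below 0.05. Its median over all tested probes was then 0.12. The doses differ in this second pair.

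Of the 69 called probes, 22, all of them rises, were called in the same direction in at least 1 aged and at least 1 pure comparison. Another 9 rises and 22 falls were called in no aged or pure comparison. Of all tested probes, 0.137%, 0.335%, 0.213% and 1.66% rose at aged 10, aged 20, pure 1.25 and pure 2.5 ppm. At most 0.305% fell in any of these. Most tested probes were thus called in none, and for the 22 falls this is near the share over all probes. Those 9 rises had changes from 0.65 to 1.81 (median 1.24) at fresh 10 ppm, 0.15 to 1.61 (0.77) at fresh 5 ppm, -0.14 to 0.92 (0.16) at aged 20 ppm and -0.23 to 0.94 (0.39) at pure 2.5 ppm. For 4 of the 9 the difference from pure 2.5 ppm had an unadjusted p below 0.05, with a smallest limma adjusted p of 0.429. The 9 were chosen as called in fresh water and not called in the pure acids. Both terms of this difference were thus used in the choice, which favours small p-values, so they are given as a description. Of the 9, 6 were dimmer than the median tested probe, replicate 1 was the highest exposed array in 6, and 1 was called without replicate 1. The one with the largest change was at -5.10, -5.94 and -5.35 on salt, -3.66, -4.32 and -4.04 at 5 ppm and -3.34, -4.02 and -3.59 at 10 ppm, and changed by -0.23 at pure 2.5 ppm.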

How the data were processed

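Each scanner file gives, per the file headers, 1 processed signal a spot from Agilent's Feature Extraction software (10.7.1.1), which is a linear intensity. The authors deposited it with median and background intensities and with 0 or 1 flags for spots above background, saturated or not uniform. Their value table holds log2 values of these arrays as deposited by the authors, and how they were normalized is not stated in the sources used here.

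Control spots (536 of 15744) were dropped. Levels are log2 processed signal less the 75th percentile of the array. In limma 3.58.1 under R 4.3.3, group means were fitted to all 27 arrays together, leaving 18 residual degrees of freedom, or 17 without replicate 1; the procedure was first tested on simulated data. The same 13134 probes entered both fits, adjusted by Benjamini-Hochberg over all of them. The number of arrays limits the precision.

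Identifiers are printed for the 2 largest called rises and the 2 largest called falls with no overlap between groups. The comparison, lists and tests were chosen with earlier results of these data known. The gene lists and tissue markers chosen for this study were not applied, since no probe is paired with a gene. Alternatives were a normexp background (offset 50, from median signals), quantile normalization, the authors' values, other filters, slide blocks, other sets of arrays, a trended and robust spread, array weights, a 1.5-fold minimum, a block for the replicate number, and leaving out each array.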

Additional observations from a re-analysis of the deposited data

How the results depend on the processing

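Against 69 called probes at fresh 10 ppm, normexp called 3, a fit on the 6 arrays 1, on the 9 fresh arrays (added after seeing the data) 10, without 5 arrays 41 and a minimum fold of 1.5 called 7, of which 3, 1, 8, 26 and 7 were among the 69. Slide as a fixed block gave 116 and a trended and robust spread 145. Leaving out 1 array gave 14 (salt replicate 9) to 382 (exposed replicate 2). The other 7 alternatives stayed within 1.5 times of 69 in count, with from 40 (authors' values) to 69 (slide as a random block) of the 69 among their calls. Against 22 called without replicate 1, the same settings gave 0 (233 probes at an unadjusted p below 0.05), 1, 8, 41, 3, 45 and 61, array weights gave 96, and leaving out 1 more array gave 4 (exposed replicate 3) to 52 (exposed replicate 2), with 6 without salt replicate 9 and 10 without salt replicate 8. Under array weights 94 of the first comparison were called. Fresh 10 ppm against 5 ppm had 0 calls under every alternative run. The difference from aged 10 ppm went from 0 to 142 calls with array weights and from 0 to 3506 with 1 array left out (aged salt replicate 8), with 1 without aged salt replicate 7. The 3506 calls were against aged salt replicates 7 and 9 alone, whose dim probes read high. Without the 5 arrays only 1 aged salt array remains, so no count is given for that setting. The difference from pure 2.5 ppm went to 1 with a trended and robust spread, 25 with array weights and from 0 to 2 with 1 array left out (pure salt replicate 9 for 2, fresh salt replicate 8 for 1). The changes of the 4 named probes reversed under none of these, though leaving out 1 array could not reverse them, since their groups did not overlap. The 4 changes ranged from 3.69 to 6.92 for UF_Ppr_AF_106707, 2.49 to 6.12 for UF_Ppr_AF_109055, -2.97 to -1.98 for UF_Ppr_AF_113032 and -2.22 to -1.12 for UF_Ppr_AF_117873. The calls were lost under 3, 1, 11 and 6 alternatives. Values of UF_Ppr_AF_109055 rest on salt readings not above background. Where an alternative moved a count, the cause was not tested.

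No paired analysis was possible because the 10 ppm arrays are numbered 1 to 3 and the salt arrays 7 to 9; the fresh 5 ppm and pure 2.5 ppm arrays are numbered 4 to 6. The fresh and aged 10 ppm groups and their salt controls share numbers. With the replicate number as a block the difference between them gave 0 calls, with 3444 probes at an unadjusted p below 0.05. Deviations of same-numbered arrays correlated at 0.11, 0.16 and 0.09 between the 10 ppm groups and at -0.10, 0.27 and 0.03 between the salt groups, and not all were over 0.1, so the numbers were not taken to pair the samples. In 5 of these 6 pairs both arrays also lay on the same slide. With slide as a fixed block the difference gave 0 calls, with 2957 probes at an unadjusted p below 0.05.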
